A study of Gossypium arboreum with 12 samples.

Results

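Spermidine synthase 3 and 5 other transcripts were lower in ovules of the fuzzy-lintless (*Fl*) line of diploid cotton, *Gossypium arboreum*, than in ovules of the fuzzy-linted (*FL*) line at both stages studied. They were chosen as the probe sets that were lower in *Fl* by 3-fold or more at 0 dpa (days post anthesis) and again at 10 dpa, and the same 6 were found when a limma adjusted p of 0.01 or less was also required at each stage. A probe set gathers short array probes designed for a single transcript, and 6 of the 21755 transcript probe sets, or 0.0276%, met this rule. The differences between the lines that chose them are therefore given as a description, with standard errors (SE) and without a p-value, and counts of the 6 past the limits restate the rule. The same rule turned to higher levels in *Fl* was met by 4 probe sets, or 0.0184%.

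The *FL* plants were wild type for lint, and the *Fl* plants were the fuzzy-lintless mutant ANOI 1960, which bears fuzz but no elongated fibre. Both were grown in the field, and RNA of whole ovules was taken at fibre initiation (0 dpa) and during elongation (10 dpa). Each line and stage had 3 arrays, labelled as biological replicates, so that 12 Affymetrix cotton GeneChip arrays were compared and a p-value measures the spread between such replicates. The *Fl* line came from a cross of both lines with *Fl* as the recurrent parent. The study described it as near isogenic but not perfectly so, from the first backcross generation. The lintless trait and any other genetic difference between the lines therefore cannot be told apart. In whole ovules, fewer cells of a type and less RNA per cell cannot be told apart either. Array signal comes from hybridization, so on the arrays the amount of a transcript and its match to the probes in each line also cannot be told apart. The study's quantitative PCR, with separate primers, also gave lower levels in *Fl* at both stages for spermidine synthase 3 and an unknown transcript described below. The fall it gave for spermidine synthase 3 was smaller than on the arrays, whether read as log2 or as fold. For the unknown transcript the order depends on that reading. The part of probe match was not tested here.

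Polyamines are small, positively charged molecules that bind nucleic acids and membranes and take part in cell division and growth in plants. Spermidine synthases are aminopropyltransferases, which add an aminopropyl group from decarboxylated S-adenosylmethionine to putrescine, giving spermidine. A further aminopropyl transfer gives spermine, and in *Arabidopsis* the gene that the study's tables name spermidine synthase 3 (AT5G53120) is also known as spermine synthase. Cotton fibres are single cells of the ovule epidermis.

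Of the 6 probe sets, 4 have a closest *Arabidopsis* match in the study's lists or primers. These are spermidine synthase 3, an unknown transcript, a transporter (AT5G62680.1) and a transcript similar to ribonuclease H (AT2G04420.1). The last of these has an E value that misses the cutoff set in the study's methods, so the name is uncertain. The unknown transcript has a locus (AT4G27520.1, an early nodulin-like protein in *Arabidopsis*) in the study's primer list alone, and its lists of transcripts leave the match blank, so this match is uncertain too. Of the other 2, Ghi.5587.1.S1_at is listed by the study without a match, and GhiAffx.24429.1.S1_s_at is absent from its lists. Both are called by their identifiers. The study lists the transporter at 0 dpa alone. Of the 6 identifiers, 4 end in _s_at or _a_at, against 47.6% of all with such an ending or _x_at, and these endings mark probes that can take up the signal of more than 1 related transcript. Each probe set was centred on its own median over the 12 arrays, so a level is the log2 distance from that median and brightness cannot be compared between probe sets. On all 6 probe sets every one of the 6 *FL* arrays lay above every one of the 6 *Fl* arrays. This was so for 375 probe sets of the array, or 1.72%, and the rule had already required a large difference at each stage, so nothing is read from it.

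**Figure D1:**
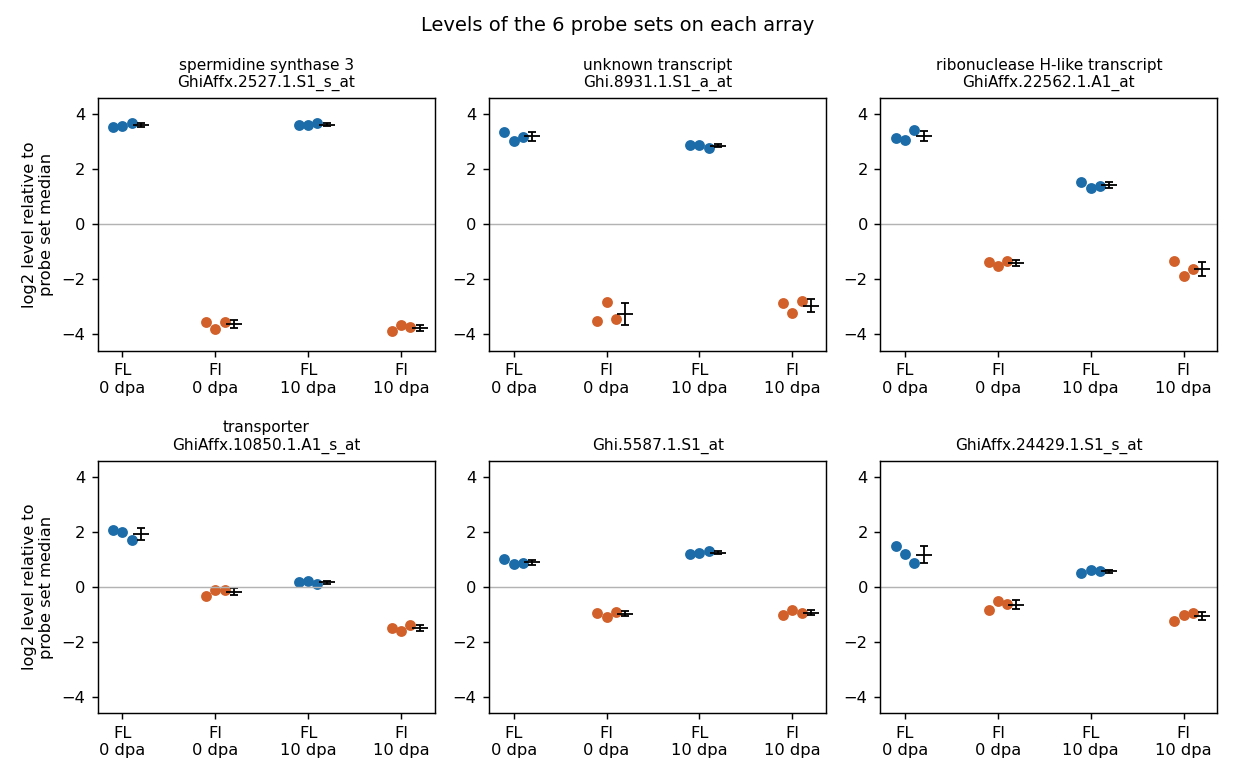
Log2 level of each of the 6 probe sets, relative to its median over the 12 arrays, on every array of *FL* (blue) and *Fl* (orange) ovules at 0 and 10 dpa, with the group mean and SD (n = 3 arrays) in black. The *FL* and *Fl* arrays are separated at both stages on all 6, by 7.10 and 7.26 for spermidine synthase 3, and the ribonuclease H-like transcript and the transporter are lower at 10 than at 0 dpa in *FL*.

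Spermidine synthase 3 (GhiAffx.2527.1.S1_s_at) stood at 3.55, 3.59 and 3.70 on the 3 *FL* arrays of 0 dpa and at -3.57, -3.80 and -3.55 on the *Fl* arrays. At 10 dpa its levels were 3.60, 3.61 and 3.68 in *FL* and -3.88, -3.66 and -3.74 in *Fl*. The lines did not overlap, and the lowest *FL* array lay 7.10 above the highest *Fl* array at 0 dpa and 7.26 above it at 10 dpa. The level in *Fl* was lower by 7.25 on the log2 scale (SE 0.082) at 0 dpa, or 152-fold, and the difference at 10 dpa was -7.39, or 168-fold. Repeating quantile normalization on the deposited values made this 319-fold and 88.8-fold, and centring each array on its hybridization controls, labelled RNAs added before hybridization, made the fall at 0 dpa 97.0-fold. On the deposited scale both were the largest falls among all 21755 probe sets. Within an array, spermidine synthase 3 held the highest centred value of all probe sets on each *FL* array of 0 dpa and the lowest on each *Fl* array of 10 dpa.

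The change between 0 and 10 dpa, which the rule did not use, was small for spermidine synthase 3 in both lines. In *FL* it was 0.02 (SE 0.082, limma adjusted p = 0.900) and in *Fl* it was -0.12 (adjusted p = 0.272). The line difference moved by -0.14 (SE 0.117) from the first stage to the second, and by 1.84, in the other direction, after repeated quantile normalization. Its pooled SD within groups was 0.0988, against a median of 0.123 over all probe sets.

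The unknown transcript (Ghi.8931.1.S1_a_at) came next at 0 dpa. At 0 dpa it stood at 3.37, 3.03 and 3.20 in *FL* and at -3.52, -2.82 and -3.45 in *Fl*. At 10 dpa it stood at 2.89, 2.90 and 2.79 in *FL* and at -2.87, -3.22 and -2.79 in *Fl*. The *FL* arrays lay close together at 10 dpa, and the gap between the lines was 5.85 at 0 dpa and 5.57 at 10 dpa. The line difference was -6.46 (SE 0.171), or 88.3-fold, at 0 dpa and -5.82, or 56.5-fold, at 10 dpa, which ranked 2nd and 5th among all falls. It became 176-fold and 27.9-fold with repeated quantile normalization, and 56.2-fold at 0 dpa with control centring. Its level in *FL* at 10 dpa differed from that at 0 dpa by -0.34 (adjusted p = 0.120), and in *Fl* by 0.30 (adjusted p = 0.186), and neither passed the test. Its replicates spread more than those of most probe sets, with a pooled SD of 0.242.

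The ribonuclease H-like transcript (GhiAffx.22562.1.A1_at) belongs by name to a superfamily of nucleases and related enzymes that cut or process nucleic acids. At 0 dpa it stood at 3.14, 3.06 and 3.43 in *FL* and at -1.38, -1.51 and -1.32 in *Fl*. At 10 dpa it stood at 1.54, 1.32 and 1.40 in *FL* and at -1.34, -1.87 and -1.63 in *Fl*. The *FL* arrays of 10 dpa lay below those of 0 dpa, whereas the *Fl* arrays of both stages overlapped. The difference between the lines was -4.61 (SE 0.130), or 24.5-fold, at 0 dpa and -3.03, or 8.19-fold, at 10 dpa, ranked 3rd and 50th. At 0 dpa it became 59.2-fold with repeated quantile normalization and 15.6-fold with control centring. In *FL* the transcript fell by 1.79 between the stages, or 3.46-fold (adjusted p = 1.9e-07), which became 13.3-fold with repeated quantile normalization and 2.78-fold with control centring. In *Fl* the change was -0.21 (SE 0.130, adjusted p = 0.231). The line difference was smaller at 10 dpa by 1.58 (SE 0.184), the largest such shift among the 6 on the deposited scale.

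The transporter (GhiAffx.10850.1.A1_s_at) is matched to a gene of the nitrate and peptide transporter family, whose *Arabidopsis* member carries glucosinolates. Its levels at 0 dpa were 2.09, 2.01 and 1.70 in *FL* and -0.31, -0.11 and -0.10 in *Fl*. At 10 dpa they were 0.17, 0.22 and 0.10 in *FL* and -1.48, -1.60 and -1.40 in *Fl*. Both lines were lower at 10 dpa, so that *FL* at 10 dpa lay just above *Fl* at 0 dpa. *FL* fell by 1.77 between the stages (SE 0.103), or 3.40-fold (adjusted p = 2.7e-08), and *Fl* fell by 1.32, or 2.50-fold (adjusted p = 5.5e-07). The fall in *FL* became 6.82-fold with repeated quantile normalization and 2.73-fold with control centring. The line difference was -2.11, or 4.30-fold, at 0 dpa and -1.66, or 3.16-fold, at 10 dpa, and the first became 8.88-fold with repeated quantile normalization. It moved by 0.45 (SE 0.146) between the stages on the deposited scale and by -0.05 when the arrays were centred on their hybridization controls.

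Ghi.5587.1.S1_at had the tightest replicates of the 6, with a pooled SD of 0.0835. Its levels at 0 dpa were 1.01, 0.82 and 0.89 in *FL* and -0.93, -1.07 and -0.91 in *Fl*. At 10 dpa they were 1.19, 1.24 and 1.30 in *FL* and -1.01, -0.82 and -0.95 in *Fl*. The *Fl* arrays of both stages overlapped, and the *FL* arrays of 10 dpa lay above those of 0 dpa. The line difference was -1.88 (SE 0.074), or 3.68-fold, at 0 dpa and -2.17, or 4.50-fold, at 10 dpa. In *FL* it rose by 0.34 between the stages, or 1.26-fold (adjusted p = 0.0021), a rise that turned to -0.57 when quantile normalization was repeated. In *Fl* the change was 0.05 (adjusted p = 0.676).

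GhiAffx.24429.1.S1_s_at was nearest to the 3-fold limit. At 0 dpa it stood at 1.49, 1.18 and 0.86 in *FL* and at -0.83, -0.51 and -0.61 in *Fl*. At 10 dpa it stood at 0.51, 0.61 and 0.59 in *FL* and at -1.23, -1.02 and -0.93 in *Fl*. The *FL* arrays of 0 dpa were widely spaced, and no *FL* array reached down to an *Fl* array. The line difference was -1.83 (SE 0.140), or 3.55-fold, at 0 dpa and -1.63, or 3.09-fold, at 10 dpa, and the second became 2.91-fold without replicate 1 of *Fl* at 10 dpa. The first became 5.55-fold with repeated quantile normalization. In *FL* it fell by 0.61 between the stages, or 1.53-fold (adjusted p = 0.0029), which became 2.63-fold with repeated quantile normalization. In *Fl* its change of -0.41 (adjusted p = 0.034) did not pass the limit of 0.01.

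**Figure D2:**
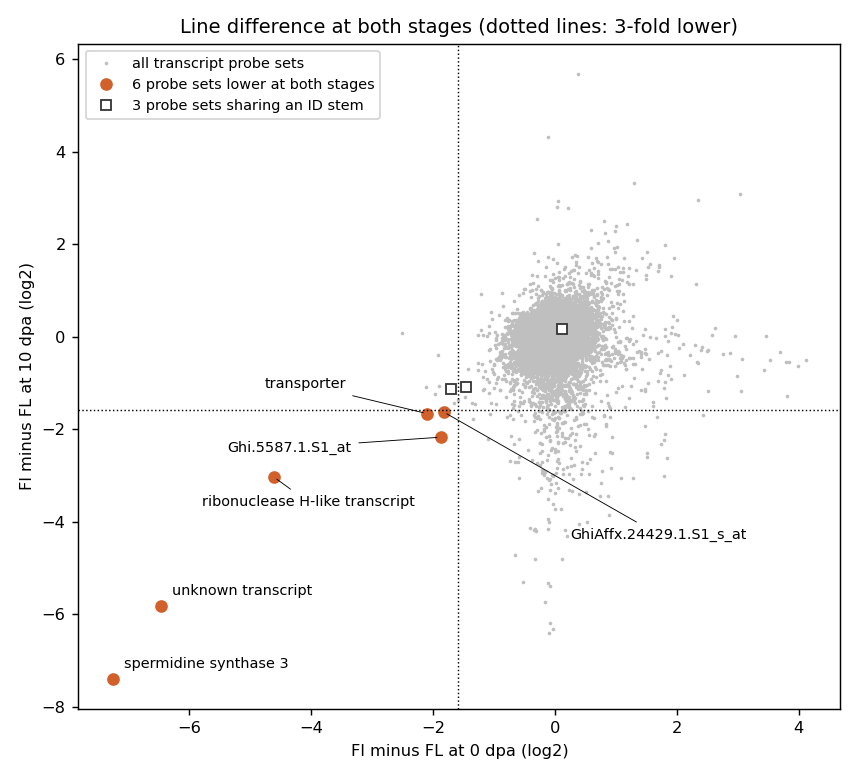
Difference between the lines (*Fl* minus *FL*, log2) at 0 dpa (horizontal) and at 10 dpa (vertical) for all 21755 transcript probe sets (grey), the 6 probe sets lower at both stages (orange) and the 3 probe sets that share an identifier stem with one of them (squares). Dotted lines mark a 3-fold lower level, and spermidine synthase 3 is farthest from 0 on both axes, at -7.25 and -7.39.

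The falls ran over a wide range. At 0 dpa only 14 probe sets, or 0.0644%, were lower in *Fl* by 3-fold or more, and the 6 make up ranks 1, 2, 3, 6, 10 and 11 among all falls. At 10 dpa 227 probe sets, or 1.04%, were lower, and the 6 held ranks 1, 5, 50, 127, 206 and 213. The median difference of the 6 was -3.36 at 0 dpa and -2.60 at 10 dpa, against -0.02 and 0.04 over all probe sets. Just inside the limit lay GhiAffx.24429.1.S1_s_at (3.55- and 3.09-fold) and the transporter (4.30- and 3.16-fold). Just outside lay metallothionein 3 (Ghi.1319.1.S1_s_at), a small metal-binding protein, at 3.14-fold and 2.71-fold. After it came a probe set with no name in the study's tables (Ghi.4503.1.A1_at), at 2.58- and 2.71-fold, and an unknown protein (Ghi.884.1.S1_at), at 3.02- and 2.57-fold. At an adjusted p of 0.01 or less and any fold, 339 probe sets, or 1.56%, were lower at both stages.

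**Figure D3:**
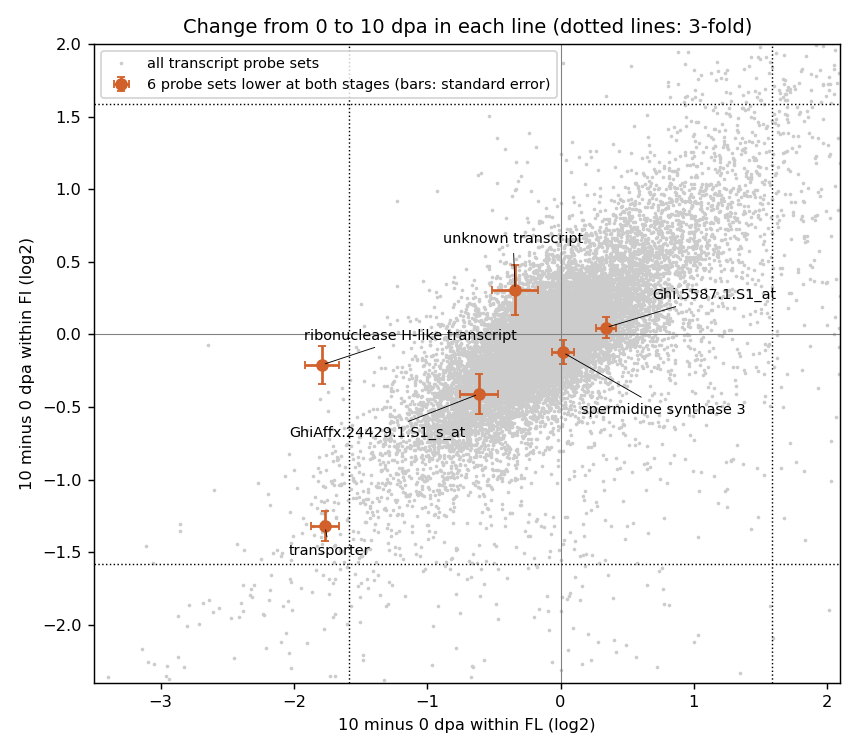
Change from 0 to 10 dpa (log2, 10 minus 0 dpa) within *FL* (horizontal) and within *Fl* (vertical) for all probe sets (grey, of which 548 lie outside the axis limits) and the 6 probe sets (orange, with SE bars). Dotted lines mark 3-fold changes, and the ribonuclease H-like transcript and the transporter pass the limit in *FL*, at -1.79 and -1.77.

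Between the stages, 2 of the 6 probe sets fell by 3-fold or more in *FL*, where 0.929% of all probe sets did so, and none rose by that much (2.95% of all). Without a limit on the fold, 3 fell (23.9% of all) and 1 rose (17.6% of all). In *Fl* none of the 6 changed by 3-fold or more, where 1.08% of all fell and 1.83% rose. The transporter alone fell there at any fold (18% of all), and none of the 6 rose (13.9% of all). The median change of the 6 was -0.48 in *FL*, against -0.07 over all probe sets, and -0.17 in *Fl*, against -0.01. Spermidine synthase 3 and the unknown transcript passed the test in neither line. When quantile normalization was repeated on the deposited values, both also fell in *FL*, by 6.73-fold and 7.40-fold. That step, here applied to centred values, replaces a value by the mean of its rank over the arrays. It gives all arrays the same spread. In *FL* spermidine synthase 3 held rank 1 on the arrays of 0 dpa and ranks 33 to 37 on those of 10 dpa.

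The identifiers carry a letter, S or A, for the orientation of the sequence behind the probes, and 3 of the 6 share their stem with a probe set of the opposite letter. None of these partners met the rule, so their smaller differences are partly fixed by the choice, and their line differences were tested. Ghi.8931.1.A1_a_at, partner of the unknown transcript, stood at 0.96, 1.16 and 0.53 in *FL* and -0.63, -0.58 and -0.51 in *Fl* at 0 dpa. At 10 dpa it stood at 0.81, 0.26 and 0.70 in *FL* and -0.26, -0.51 and -0.73 in *Fl*. The lines did not overlap at either stage, and it was lower in *Fl* by 1.46 (SE 0.175), or 2.75-fold, at 0 dpa (adjusted p = 0.000178) and by 1.09, or 2.12-fold, at 10 dpa (adjusted p = 0.000574). With control centring the fall at 0 dpa was 1.75-fold.

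GhiAffx.22562.1.S1_at, partner of the ribonuclease H-like transcript, stood at 0.84, 0.77 and 1.10 in *FL* and -0.94, -0.67 and -0.80 in *Fl* at 0 dpa. At 10 dpa it stood at 0.40, 0.59 and 0.48 in *FL* and -0.87, -0.40 and -0.67 in *Fl*. Its lines did not overlap at either stage. It was lower in *Fl* by 1.71 (SE 0.124), or 3.27-fold, at 0 dpa (adjusted p = 2.6e-06) and by 1.14, or 2.20-fold, at 10 dpa (adjusted p = 2.7e-05). With control centring the fall at 0 dpa was 2.08-fold, short of the 3-fold limit. In *FL* its change between the stages was -0.42 (adjusted p = 0.014), which did not pass the limit, against -1.79 for the ribonuclease H-like transcript.

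GhiAffx.24429.1.A1_at behaved differently from the other two partners. It stood at -0.07, -0.23 and 0.24 in *FL* and 0.34, -0.04 and -0.01 in *Fl* at 0 dpa, and between -0.0032 and 0.0078 in *FL* and -0.066 and 0.37 in *Fl* at 10 dpa. The lines overlapped at both stages. Its differences of 0.11 (SE 0.140, adjusted p = 0.639) and 0.16 (adjusted p = 0.441) did not pass the test, where GhiAffx.24429.1.S1_s_at differed by -1.83 and -1.63. Across the array, 1627 stems had probe sets of both letters. At 10 dpa, 36 other probe sets lower by 3-fold or more had such a partner. Of these partners, 12 were also lower at an adjusted p of 0.01 or less. The share of all probe sets lower by that limit at 10 dpa is not given here, so nothing is read from this count. At 0 dpa the only other probe set lower by 3-fold or more with a partner was GhiAffx.22562.1.S1_at, described above. Its partner is the ribonuclease H-like transcript, which the rule had already chosen as lower, so 0 dpa offers no comparison. Spermidine synthase 3, the transporter and Ghi.5587.1.S1_at had no partner of the same stem.

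**Figure D4:**
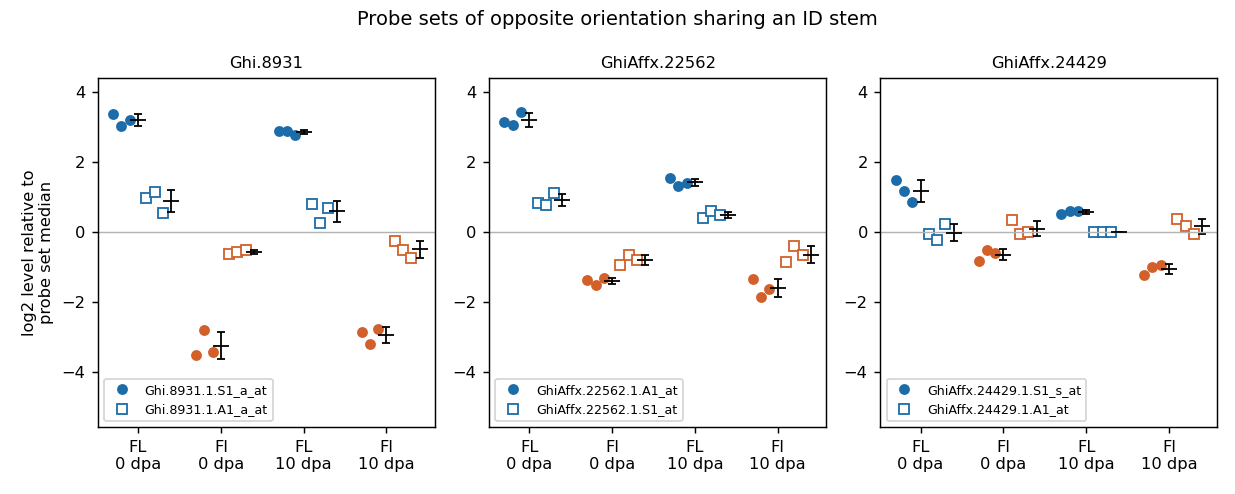
Log2 level relative to the probe set median on each array for the 3 stems with probe sets of both orientations, with one of the 6 probe sets (filled circles) beside its partner (open squares), *FL* in blue and *Fl* in orange, and the group mean and SD (n = 3 arrays) in black. The partners of the unknown and the ribonuclease H-like transcript are lower in *Fl* by 2.12- to 3.27-fold, and the lines overlap for the third partner.

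Over the 12 arrays, the pattern of spermidine synthase 3 was shared by the unknown transcript (Pearson's r = 0.995), Ghi.5587.1.S1_at (r = 0.991), the ribonuclease H-like transcript (r = 0.946), GhiAffx.24429.1.S1_s_at (r = 0.943) and the transporter (r = 0.769). These values follow from the choice of the 6, since the points share the same 2 lines. Within groups, the deviations of the 15 pairs of probe sets correlated between -0.79 and 0.80, with a median of -0.14. Among all other probe sets the pattern most like it was that of Gra.1783.1.A1_s_at, which has no name in the study's tables, with r = 0.980 and line differences of -1.08 at 0 dpa and -1.22 at 10 dpa. The other 4 of the nearest 5 had r of 0.969 to 0.974.

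Other probe sets of the same listed classes, or with shared words in their names, were taken from the study's tables. These lists were chosen on these arrays and so are not independent evidence. A transcript with more than 1 probe set is counted more than once. No other transcript of polyamine metabolism was listed. Of 12 other transport transcripts, 1 was lower in *Fl* by 3-fold or more at 0 dpa, and 10 were lower and 1 higher at 10 dpa, with a median of 0.09 at 0 dpa and -2.73 at 10 dpa. The transcript lower at 0 dpa was a Sec14p-like phosphatidylinositol transfer protein (Ghi.7853.1.S1_at), which differed by -2.50 at 0 dpa and 0.07 at 10 dpa. Pleiotropic drug resistance 4 (Ghi.7279.1.S1_at), an ABC transporter, was the only one of the 12 lower at both stages at any fold, by 0.66 and 2.71. The largest falls at 10 dpa were those of zinc induced facilitator 1 (Ghi.9146.1.S1_s_at), which differed by 0.39 at 0 dpa and -4.05 at 10 dpa, and an auxin efflux carrier family protein (GraAffx.1410.1.S1_at), at 0.50 and -3.35. Those listed with the transporter as peptide transporters, nitrate transporter 1.5 (Ghi.3135.1.S1_at) and peptide transporter 3 (Ghi.1847.1.S1_at), differed by 0.14 and 0.01 at 0 dpa and by -2.86 and -2.95 at 10 dpa.

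Of 8 other transcripts listed as ribonucleases or ribonuclease H-like, 3 were higher in *Fl* by 3-fold or more at 0 dpa and none lower, and 7 were lower at 10 dpa. Their medians were 0.76 at 0 dpa and -2.20 at 10 dpa. The other ribonuclease H-like transcript (Ghi.8610.1.S1_s_at) was higher in *Fl* by 2.35 at 0 dpa, where GhiAffx.22562.1.A1_at differed by -4.61. Of 34 listed probe sets without a match, 6 were higher and 1 lower at 0 dpa, and at 10 dpa 2 were higher and 28 lower. Their medians were 0.08 and -2.29. Some of the 34 also stand in the list of ribonucleases. The share of all probe sets higher in *Fl* at a single stage is not given here. Nothing is therefore read from the counts of higher probe sets in any of the lists. The 3 nodulin or arabinogalactan transcripts were chosen by these words in their names, not by protein family. None was past the limits at 0 dpa, and 2 were higher in *Fl* at 10 dpa, with medians of 0.17 and 1.63. The third, Nodulin MtN3 (Gra.2844.1.S1_s_at), was lower by 1.49, or 2.82-fold, at 10 dpa (limma adjusted p = 2.1e-06).

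The listed markers of fibre cells (expansins, FASCICLIN-like arabinogalactan, beta-6 tubulin and peroxidase 2, 7 probe sets) did not all go the same way at 10 dpa. At 0 dpa none was lower and 1 was higher in *Fl*, with differences from -0.17 to 2.00 and a median of 0.23. At 10 dpa 5 were lower and 1 higher, with a median of -3.31 and a range from -6.32 to 5.68. The 5 lower probe sets belong to expansin-like B1, peroxidase 2 and beta-6 tubulin. Expansin-like B1 and peroxidase 2 were each counted more than once. FASCICLIN-like arabinogalactan went the other way, higher in *Fl* by 5.68 at 10 dpa. Expansin A1 was higher in *Fl* by 2.00 at 0 dpa and differed by 0.36 at 10 dpa, short of the limits. The 6 probe sets were lower in *Fl* at both stages. The part that the content of fibre cells had in their levels at 10 dpa was not tested.

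**Figure D5:**
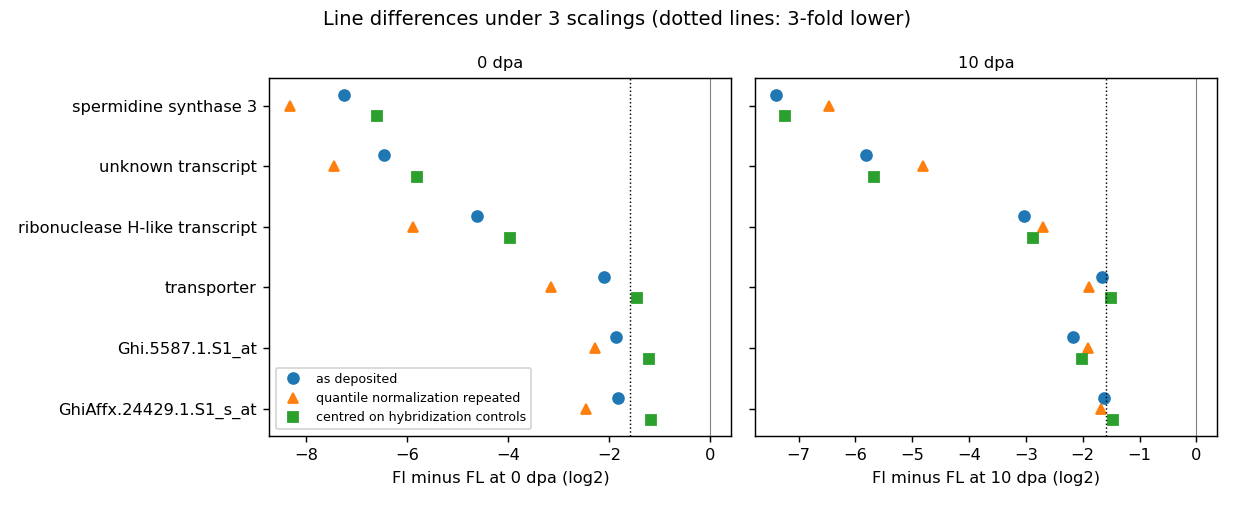
Difference between the lines (*Fl* minus *FL*, log2) of the 6 probe sets at 0 dpa (left) and 10 dpa (right) as deposited (circles), after repeated quantile normalization (triangles) and after centring each array on its hybridization controls (squares). All points lie below 0, and on control centring the transporter (2.74-fold), Ghi.5587.1.S1_at (2.34-fold) and GhiAffx.24429.1.S1_s_at (2.26-fold) fall short of the dotted 3-fold line at 0 dpa.

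The hybridization controls were not level between the groups. Averaged over 27 probe sets, they stood at 0.41 ± 0.12 on the *FL* arrays and at -0.24 ± 0.029 on the *Fl* arrays of 0 dpa (mean ± SD, n = 3 each), a difference of -0.65 (exact permutation test, two-sided, p = 0.10, the smallest that 3 against 3 arrays allow). At 10 dpa they differed by -0.15 (exact permutation p = 0.20). When each array was centred on these controls, spermidine synthase 3, the unknown transcript and the ribonuclease H-like transcript stayed lower by 3-fold or more at both stages. The transporter and GhiAffx.24429.1.S1_s_at came to 2.84- and 2.78-fold at 10 dpa, while Ghi.5587.1.S1_at stayed past the limit there. The SD over all probe sets was 0.490 to 0.501 on the *FL* arrays of 10 dpa and 0.347 to 0.364 on the other 9. One label of replicate 1 of *FL* at 10 dpa names 0 dpa, while its title and source name 10 dpa. Its ribonuclease H-like level of 1.54 and transporter level of 0.17 lay beside those of the other *FL* arrays of 10 dpa.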

How the data were processed

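RNA of *FL* and *Fl* ovules at 0 and 10 dpa was hybridized to 12 arrays, 3 per group. The authors summarised probe signals by RMA (background correction, quantile normalization and median polish) in GeneSpring GX 11.5 and deposited log2 values. The rows of the deposited table were centred, with medians of 0, a step absent from the study's methods, so brightness and presence are unknown. The table holds 21889 probe sets, and the filter that led to it is not given in the sources used here. Leaving out 134 controls (98 AFFX and 36 RPTR reporters) gave 21755.

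A limma model (limma 3.58.1, R 4.3.3) with a mean for each group was fitted to all 21755 probe sets, with Benjamini-Hochberg adjustment over all of them. A call needed an adjusted p of 0.01 or less and a fold of 3 or more, as in the study's methods. The fit was first tested on simulated data. Named probe sets are the 6, those sharing an identifier stem, the 3 nearest to the limit and those most like spermidine synthase 3 over the arrays. At most 4 per list with the largest change at the stage described are also named. Nodulin MtN3 and the single fibre markers were named after their values were seen. Gene names and lists are those of the study's tables. The members and lists were chosen with earlier results of these data known. Alternatives were another scaling (repeated quantile normalization, hybridization controls, array medians), the methods' t-test, a fit on 2 groups, the replicate number as a block, robust eBayes, controls kept, other fold limits, Spearman's rho and leaving out each array. The repeated quantile normalization acted on the centred values, unlike the step within RMA, and gave all arrays the same spread. The number of arrays limits the precision.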

Additional observations from a re-analysis of the deposited data

Results flagged for a closer look

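The listed transcripts set beside the 6 had line differences that were not the same at 0 and 10 dpa by limma's interaction term. The list without a match was not counted here, and the other lists hold 29 probe sets. Some of the 29, from the list of ribonucleases, also stand in the list without a match. All 29 passed at an adjusted p of 0.01 or less, with shifts from -6.29 to 5.30. Of the 29, 25 shifted toward lower levels in *Fl* at 10 dpa and 4 toward higher. The lists were chosen on these arrays for a 3-fold line difference, mostly at a single stage. That choice made a pass likely in advance, so it tests little, and the share passing over all probe sets is not given here. Only 8 of those named in the text are given singly. The line difference moved by -3.00 (SE 0.150, adjusted p = 4.9e-08) for nitrate transporter 1.5 (Ghi.3135.1.S1_at). For peptide transporter 3 (Ghi.1847.1.S1_at) it moved by -2.96 (SE 0.123, adjusted p = 9.5e-09). For the ribonuclease H-like transcript Ghi.8610.1.S1_s_at it moved by -2.91 (SE 0.139, adjusted p = 3.2e-08), from 2.35 at 0 dpa to -0.56 at 10 dpa. For pleiotropic drug resistance 4 (Ghi.7279.1.S1_at) it moved by -2.05 (SE 0.121, adjusted p = 1.8e-07). The Sec14p-like transcript (Ghi.7853.1.S1_at) went the other way, by 2.57 (SE 0.141, adjusted p = 1.0e-07). It moved by -4.44 (SE 0.198, adjusted p = 1.7e-08) for zinc induced facilitator 1 (Ghi.9146.1.S1_s_at) and by -3.85 (SE 0.169, adjusted p = 1.5e-08) for the auxin efflux carrier (GraAffx.1410.1.S1_at). For Nodulin MtN3 (Gra.2844.1.S1_s_at) it moved by -1.66 (SE 0.170, adjusted p = 2.6e-05).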

How the results depend on the processing

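The 6 probe sets stayed lower in *Fl* at both stages under all alternatives run, but the number past the limits, which restates the rule and tests nothing, at 0 dpa went from 6 to 3, and at both stages from 6 to 3, when arrays were centred on the hybridization controls. All probe sets lower at 0 dpa went from 14 to 4 with that centring and to 28 with repeated quantile normalization, which also took those lower at 10 dpa from 227 to 136. A limit of 2-fold gave 23 probe sets lower at both stages and a limit of 4-fold gave 3. Changes past the limits between the stages in *FL* went from 2 of the 6 to 4 (quantile) and 0 (controls, 2.78- and 2.73-fold). The partner GhiAffx.22562.1.S1_at was not called at 0 dpa with control centring (2.08-fold) or by the methods' t-test. By that t-test GhiAffx.24429.1.S1_s_at also missed the limit on adjusted p at 0 dpa. This left 5 of the 6 past the limits at 0 dpa and at both stages. Of the 5 probe sets most like spermidine synthase 3, 1 stayed among the nearest 5 by Spearman's rho and 2 after quantile normalization.

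Some stage changes turned direction. With quantile normalization these were spermidine synthase 3 (-2.75) and Ghi.5587.1.S1_at (-0.57) in *FL*, and the unknown transcript (-0.23) and Ghi.5587.1.S1_at (-0.18) in *Fl*. With control centring it was Ghi.5587.1.S1_at in *Fl* (-0.14). Leaving out 1 array took the change of spermidine synthase 3 in *FL* to between -0.018 and 0.060, that of Ghi.5587.1.S1_at in *Fl* to between -0.0065 and 0.087, and the 0 dpa line difference of GhiAffx.24429.1.A1_at to between -0.0090 and 0.24. The cause of these turns was not tested, and the ranks given above describe spermidine synthase 3 in *FL* alone.

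Replicate numbers did not pair the arrays (same-number correlations -0.20 to 0.08). With the replicate number as a replicate block, 6 of the 6 stayed past the limits at both stages, 14 and 227 probe sets were lower at 0 and 10 dpa, and the fall of spermidine synthase 3 at 0 dpa stayed at -7.25.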
